A study of Mus musculus with 8 samples.

Results

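MiT/TFE transcription factors and the folliculin complex carry the nutrient signal of the Rag GTPases to and from the lysosome, and their transcripts were followed here in mouse liver. The set held *Tfeb*, *Tfe3* and *Mitf*, which encode basic helix-loop-helix leucine zipper factors, and *Flcn*, *Fnip1* and *Fnip2*, which encode folliculin and its partners, the folliculin-interacting proteins. They were picked by name, and all 6 were found among the 14506 genes of the expression table and passed the filter of a mean normalized read count of 10, which left 11174 genes. *Tfec*, which completes the MiT/TFE family, was not analysed here.

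Whole livers came from 4 *Rragc* S74N/+ mice, which carry a knocked-in asparagine in place of serine at residue 74 of RagC on 1 allele in every cell of the body, and from 4 *Rragc* +/+ mice without it, called mutants and controls for short. Among the *Rragc* +/+ mice, replicates 1 to 3 were 3 months old and replicate 4 was 2.5 months old. Among the *Rragc* S74N/+ mice, replicates 1 and 2 were 3 months old, replicate 3 was 2.5 months old and replicate 4 was 2 months old, so no control matched that youngest mouse. The comparison asks how the transcripts stand in young livers under a RagC variant that the study describes as activating.

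When amino acids are plentiful, mTORC1 is held at the lysosome by the Rag GTPases and phosphorylates TFEB and TFE3, which then stay in the cytoplasm bound to 14-3-3 proteins. In starvation the factors lose these phosphates, enter the nucleus and switch on genes of lysosomes and autophagy through short motifs built around CACGTG. Folliculin, bound to FNIP1 or FNIP2, is a GTPase-activating protein for RagC and RagD, and the GDP-bound RagC it produces is the form that presents TFEB and TFE3 to mTORC1. Transcript levels say nothing of phosphorylation or of location in the cell.

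Promoter sequences of these genes and of lysosomal genes named later are shown first, because the motif read by MiT/TFE factors is short enough to be seen in them. RefSeq windows on GRCm38.p6, each covering 250 bases before to 50 after a start site, were found for all 6 genes, 11 windows in all. Both strands were searched for CACGTG, for TCACGTG, which contains it, and for TCATGTG. The longest run of letters common to the *Fnip1* and *Fnip2* windows was then searched as well, a choice made after the sequences had been read. Capitals mark the matched letters in every sequence below.

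The region before the start site of *Fnip1*, chr11:54437929-54438178 on the forward strand of GRCm38.p6, is shown whole because it held the CACGTG core.
Fnip1: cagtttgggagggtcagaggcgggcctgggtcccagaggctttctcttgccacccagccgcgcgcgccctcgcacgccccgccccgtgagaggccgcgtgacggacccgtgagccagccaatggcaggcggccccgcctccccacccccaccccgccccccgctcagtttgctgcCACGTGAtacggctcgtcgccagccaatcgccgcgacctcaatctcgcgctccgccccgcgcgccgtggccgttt

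*Fnip1* was the only gene of the 6 with CACGTG, at position -75 from the start site, and none of the windows of *Tfeb*, *Tfe3*, *Mitf* or *Flcn* matched any of the motifs. The core was present in 1 of 11 windows here, or 9.09%, against 7.15% of 32851 RefSeq windows. The longest run shared by *Fnip1* and *Fnip2* was the 10-letter palindrome GTCATATGAC, which stood in 14 of 32851 windows, or 0.0426%. It is shown for both genes because they are paralogs. The 14 windows include those from which the run was chosen, so its share is a description and not a test. The *Fnip1* stretch is chr11:54438185-54438214 on the forward strand, with the palindrome starting at position 17 after the start site, and the *Fnip2* stretch is chr3:79567766-79567795 on the reverse strand, with the palindrome starting at position -106. In the GENCODE annotation of GRCm38 the first base of *Fnip1* is 54438199, inside the palindrome, and that of *Fnip2* is 79567796, a few bases before it.
Fnip1: actaatttctGTCATATGACtgaggcgccc
Fnip2: ggccggctccGTCATATGACcggccggcgg

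For a fixed list of 46 MiT/TFE target genes, 38 genes had a RefSeq window and 42.1% of them held CACGTG, against 8.09% of all 27025 genes with one. A higher share is built into a list of targets of factors that act through this motif, and the list includes *Fnip1*. The contrast is therefore a description and not a test. *Mcoln1*, which encodes the lysosomal calcium channel mucolipin 1, and *Pip4p1*, a lysosomal phosphoinositide phosphatase, are shown as examples because their transcripts return below. The windows of *Ctns*, *Atp6ap1*, *Stom* and *Tob1*, which also return below, held none of the motifs. *Ctsa* and *Gdf15*, named below as well, each had a window with a match, not shown here. The *Mcoln1* stretches are chr8:3500435-3500464 and chr8:3500462-3500491 on the forward strand, with motifs starting at positions -72 and -46. The *Pip4p1* stretch is chr14:50930886-50930915 on the reverse strand, with a motif starting at position -55. A further *Pip4p1* match, starting at position -207, is not shown.
Mcoln1: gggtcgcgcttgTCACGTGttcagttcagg
Mcoln1: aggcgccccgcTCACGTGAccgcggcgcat
Pip4p1: gggccagcctgTCACGTGAgcggggcggca
A match is a run of letters in a window and not a measured binding site.

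The series as a whole can be described briefly. Libraries counted only the 3′ ends of messenger RNAs, so a count followed transcript number and not length, and isoforms with a common 3′ end were not separated. Between 4313076 and 6632108 reads per liver fell in listed genes. By the median Pearson r of each liver with the other livers, which ran from 0.903 to 0.938, *Rragc* S74N/+ replicate 4 stood lowest. *Rragc* itself averaged 84.1 ± 20.4 normalized read counts in control and 76.6 ± 7.32 in mutant livers (SD, n = 4 each), and the counts do not read residue 74, so they are no check on the labels. Among the lists of cell type markers, that of hepatocytes had the highest summed level in every liver, 233920 to 427700. Its member *Alb* varied between livers, from 57178 in *Rragc* +/+ replicate 4 to 252840 in *Rragc* S74N/+ replicate 4. In whole tissue, fewer cells of a type and less RNA per cell cannot be told apart.

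The 6 genes were expressed at low to moderate levels, from a mean of 28.7 normalized read counts for *Flcn* to 189 for *Fnip1* over the 8 livers, where the median tested gene stood at 78.7. Normalized read counts are reads divided by a size factor for each library. In descending order the means were 189 for *Fnip1*, 177 for *Tfe3*, 48.4 for *Tfeb*, 44.1 for *Mitf*, 39.4 for *Fnip2* and 28.7 for *Flcn*. *Fnip1* and *Tfe3* were not separated by the test, since *Fnip1* was above *Tfe3* in 6 of 8 livers (exact sign-flip permutation test, adjusted p = 0.664). *Tfe3* was above *Tfeb* in 8 of 8 livers, by 1.89 ± 0.49 on the log2 scale (SD, n = 8), with an exact sign-flip permutation p of 0.00781, the smallest that 8 livers allow, and an adjusted p of 0.0391 over the 5 neighbouring pairs. The neighbours *Tfeb* and *Mitf*, *Mitf* and *Fnip2*, and *Fnip2* and *Flcn* did not differ beyond their spread (exact sign-flip permutation test, adjusted p from 0.43 to 0.75). Which genes were neighbours was read from the means of these same 8 livers, and the adjustment covers only those 5 pairs.

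Among the transcription factors, *Tfeb* had the clearest contrast between genotypes in these livers, although it did not pass the test over all genes. TFEB is best known in liver for the fasting response, in which it raises lysosomal and lipid-breakdown genes. Its gene lies on chr17:47737030-47792419 on the forward strand. *Tfeb* was at 88.6, 44.9, 59.4 and 56.1 normalized read counts in *Rragc* +/+ replicates 1 to 4, and at 33.1, 43.5, 27.9 and 33.4 in *Rragc* S74N/+ replicates 1 to 4. All 4 *Rragc* S74N/+ livers were below all 4 *Rragc* +/+ livers, but the gap was narrow, since the lowest *Rragc* +/+ liver had 48 reads and the highest *Rragc* S74N/+ liver had 49 before scaling. The means were 62.2 ± 18.6 and 34.5 ± 6.56 (SD, n = 4 each). On the scale of log2(normalized count + 1), the mutant minus control difference was -0.81 (SE 0.30, 95% interval -1.45 to -0.16), and the limma p adjusted over all tested genes was 0.846. The exact two-sided permutation test over 70 labellings gave p = 0.0286, the smallest that 4 against 4 can give. Without *Rragc* +/+ replicate 1, the highest liver, the log2 fold change was -0.63, and in 3-month-old mice alone it was -0.69. In both cases *Tfeb* no longer had an unadjusted limma p under 0.05.

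*Tfe3*, which encodes a close relative of TFEB, gave 226, 223, 149 and 217 in *Rragc* +/+ livers and 128, 183, 194 and 99.5 in *Rragc* S74N/+ livers. In *Rragc* +/+ livers, 3 livers lay close together and replicate 3 stood below them, inside the range of the *Rragc* S74N/+ livers, so the genotypes overlapped. The gene lies on chrX:7762560-7775202 on the forward strand. The means were 203 ± 36.7 and 151 ± 45.0 (SD, n = 4 each), and the log2 fold change was -0.46 (SE 0.26, 95% interval -1.02 to 0.11, limma adjusted p = 0.846, exact permutation p = 0.171). The log2 fold change was -0.28 without *Rragc* S74N/+ replicate 4, the 2-month-old mouse and the lowest liver for *Tfe3*.

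*Mitf*, the family member known from melanocytes, mast cells and osteoclasts, gave 50.3, 44.9, 36.8 and 41.1 in *Rragc* +/+ livers and 69.8, 46.2, 30.1 and 33.4 in *Rragc* S74N/+ livers. *Rragc* S74N/+ replicate 1 was the highest of all 8 livers and replicate 3 the lowest, so the controls lay within the range of the mutants. The log2 fold change of *Mitf* was -0.02 (SE 0.32, 95% interval -0.71 to 0.68, limma adjusted p = 0.993, exact permutation p = 1.0). Its gene lies on chr6:97807052-98021349 on the forward strand. Of 5 melanocyte markers only *Dct*, a pigment enzyme gene, was listed. It averaged 50.2 ± 5.17 in controls and 25.8 ± 19.3 in mutants (SD, n = 4 each). *Rragc* S74N/+ replicate 1, at 53.3, lay inside the control range of 43.9 to 55.9, so the genotypes overlapped. *Dct* had an unadjusted limma p under 0.05 and a limma adjusted p of 0.846. Its part in the *Mitf* values was not tested.

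**Figure D1:**
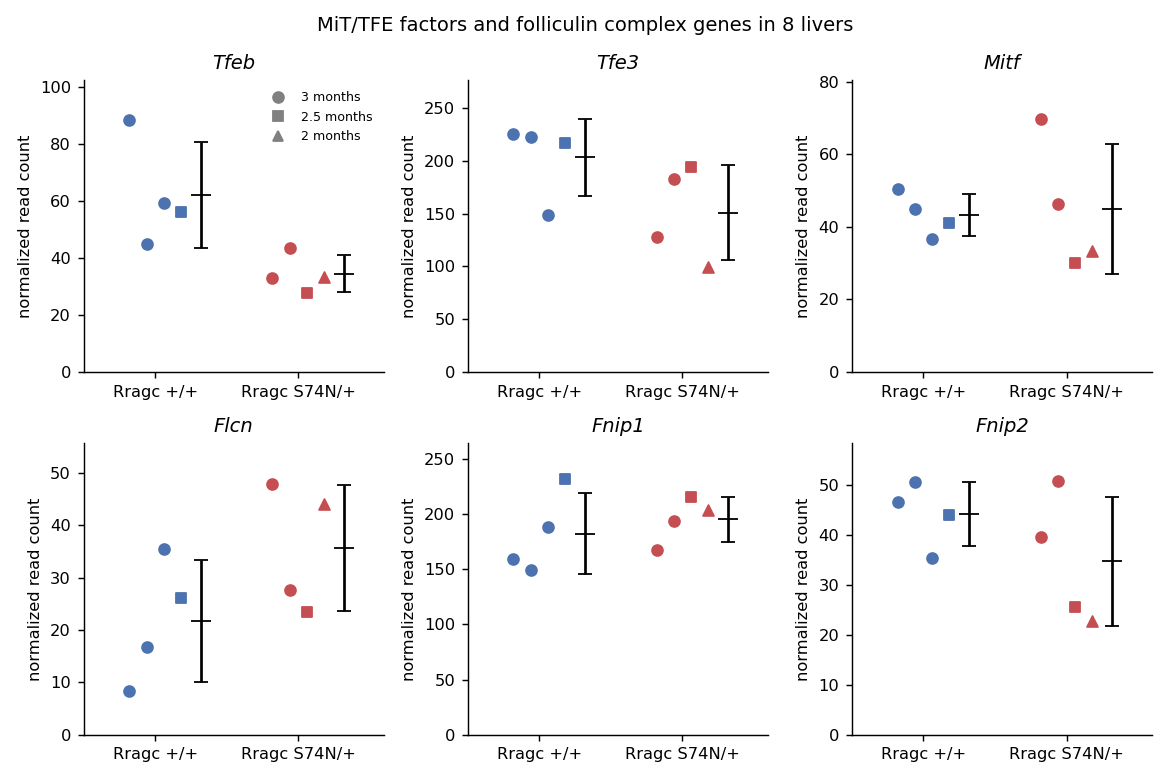
Normalized read count of each of the 6 genes in every liver, with *Rragc* +/+ livers in blue and *Rragc* S74N/+ livers in red, marker shape giving the age of the mouse and the black bar giving mean ± SD (n = 4 each). *Tfeb* is the only panel in which the colours do not overlap, from 44.9 to 88.6 in *Rragc* +/+ and 27.9 to 43.5 in *Rragc* S74N/+ livers.

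*Flcn*, which encodes folliculin, was the gene of the folliculin complex with the widest spread. Its levels were 8.39, 16.8, 35.4 and 26.2 normalized read counts in *Rragc* +/+ livers and 47.7, 27.6, 23.4 and 44.1 in *Rragc* S74N/+ livers. The lowest pair of livers were both *Rragc* +/+ and the highest pair both *Rragc* S74N/+, and the other 4 livers overlapped. The means were 21.7 ± 11.7 and 35.7 ± 12.0 (SD, n = 4 each), and the log2 fold change was 0.80 (SE 0.46, 95% interval -0.18 to 1.79, limma adjusted p = 0.846, exact permutation p = 0.143). *Flcn* rested on few reads, from 9 to 54 per liver. *Rragc* +/+ replicate 1 weighed most, and without it the log2 fold change was 0.43. The gene lies on chr11:59791408-59810016 on the reverse strand.

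Of the genes for the partners of folliculin, *Fnip1* had the more abundant transcript in these livers. It gave 159, 150, 188 and 232 in *Rragc* +/+ and 167, 194, 215 and 204 in *Rragc* S74N/+ livers. The mutant livers lay within the range of the controls. This was the steadiest of the 6 transcripts, with a coefficient of variation within genotypes of 15.8% against 41.2% for *Flcn*. The log2 fold change of *Fnip1* was 0.11 (SE 0.22, 95% interval -0.35 to 0.58, limma adjusted p = 0.915, exact permutation p = 0.486). Its gene lies on chr11:54438199-54518235 on the forward strand.

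*Fnip2*, which encodes the paralogous partner, gave 46.6, 50.5, 35.4 and 43.9 in *Rragc* +/+ and 39.5, 50.7, 25.6 and 22.8 in *Rragc* S74N/+ livers. The lowest values were those of *Rragc* S74N/+ replicates 3 and 4, the youngest mutants, while replicate 2 matched the highest control. The log2 fold change of *Fnip2* was -0.40 (SE 0.33, 95% interval -1.11 to 0.31, limma adjusted p = 0.846, exact permutation p = 0.257). Its gene lies on chr3:79455974-79567796 on the reverse strand.

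**Figure D2:**
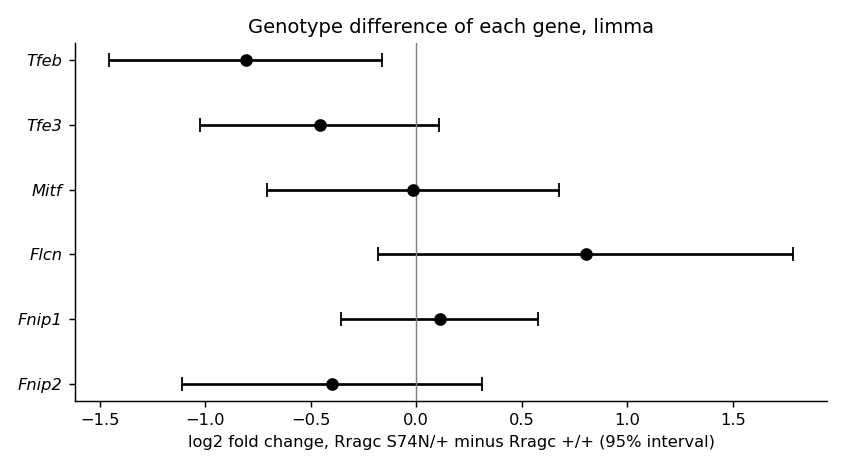
Log2 fold change, *Rragc* S74N/+ minus *Rragc* +/+, of each gene from limma on log2(normalized count + 1), with bars giving the 95% interval (n = 4 livers each). The interval of *Tfeb* runs from -1.45 to -0.16 and the other 5 intervals include 0.

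Counted over the set, 0 of 6 genes had a limma adjusted p under 0.05, where 1 of 11174 tested genes did (0.00895%). At an unadjusted p under 0.05 there was 1 of 6, *Tfeb*, against 5.17% of all tested genes in either direction, 2.8% in the lower direction and 2.37% in the higher. *Tfeb* was likewise the 1 gene of 6 whose genotypes did not overlap, against 2.94% of all tested genes, of which 1.64% were lower and 1.3% higher in *Rragc* S74N/+ livers. The log2 fold change was below 0 for 4 of the 6 genes and above 0 for 2, against 48.7% and 51.3% of all tested genes. The median log2 fold change of the 6 genes was -0.21, beside 0.01 over all tested genes.

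Counting error was a part of the spread. The coefficient of variation that counting alone would give was 14.4% for *Tfeb*, 7.49% for *Tfe3*, 14.9% for *Mitf*, 18.6% for *Flcn*, 7.27% for *Fnip1* and 15.8% for *Fnip2*. The measured variation within genotypes, between separate mice, was 28.9% for *Tfeb*, 23.2% for *Tfe3*, 30.3% for *Mitf*, 41.2% for *Flcn*, 15.8% for *Fnip1* and 25.9% for *Fnip2*.

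Shares within a liver do not depend on scaling between livers. *Tfeb* made up 24.3%, 14.4%, 24.3% and 17.9% of the reads of *Tfeb*, *Tfe3* and *Mitf* in *Rragc* +/+ livers, and 14.3%, 16.0%, 11.1% and 20.1% in *Rragc* S74N/+ livers. The genotypes overlapped, with means of 20.2% ± 4.93 and 15.4% ± 3.76 (SD, n = 4 each) and a difference of -4.83 percentage points (exact permutation p = 0.171). In single livers the 95% Wilson interval of this share, which covers counting error only, was as wide as 18.5% to 31.2% in *Rragc* +/+ replicate 3. *Tfe3* was the major family transcript in every liver, at 65.7% ± 5.22 and 64.8% ± 9.45 (exact permutation p = 0.857, n = 4 each). *Mitf* held 14.1% ± 0.82 in *Rragc* +/+ and 19.8% ± 7.74 in *Rragc* S74N/+ livers (exact permutation p = 0.171, n = 4 each), and its 30.3% in *Rragc* S74N/+ replicate 1 was the highest.

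Between the partners of folliculin, *Fnip1* held 80.1% ± 4.77 of the reads in *Rragc* +/+ and 84.9% ± 5.56 in *Rragc* S74N/+ livers (exact permutation p = 0.229, n = 4 each). Summed over the 3 transcription factors, the level was 245 to 364 in *Rragc* +/+ and 166 to 273 in *Rragc* S74N/+ livers. Summed over *Flcn*, *Fnip1* and *Fnip2* it was 214 to 302 and 254 to 272, so both sums overlapped between genotypes.

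**Figure D3:**
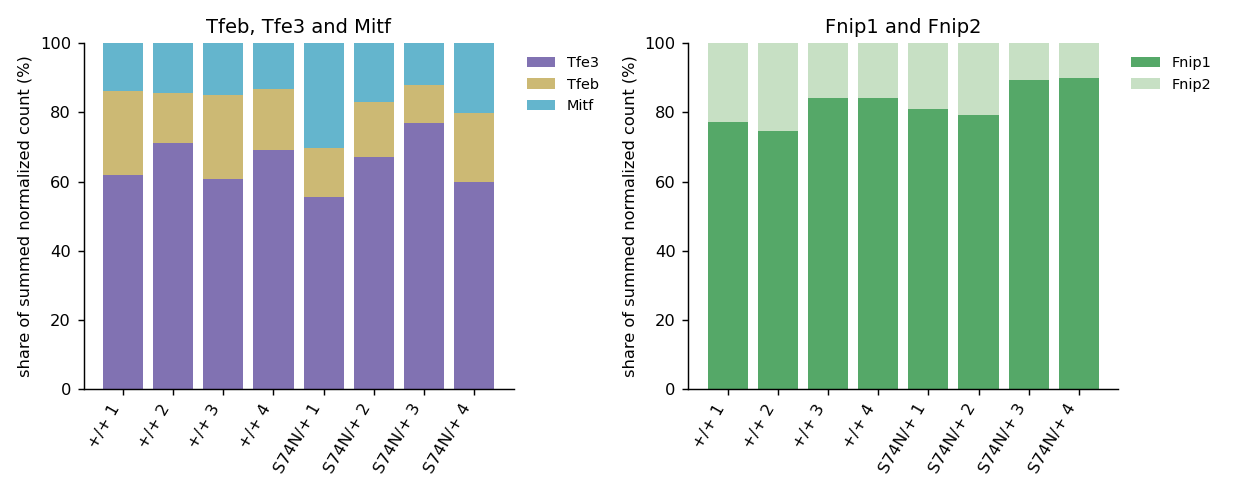
Share of summed normalized read counts held by each transcript in each of the 8 livers, in percent, for *Tfeb*, *Tfe3* and *Mitf* on the left and for *Fnip1* and *Fnip2* on the right. *Tfe3* takes the largest share in every liver, 55.4% to 77.0%, and *Fnip1* exceeds *Fnip2* in every liver.

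Age was not balanced between the genotypes, so each difference was also read within an age. At 3 months, with 3 controls and 2 mutants, the log2 difference of *Rragc* S74N/+ minus *Rragc* +/+ was -0.69 for *Tfeb*, -0.35 for *Tfe3* and 0.37 for *Mitf*. At 2.5 months, with 1 mouse of each genotype and hence no test, it was -0.98 for *Tfeb*, -0.16 for *Tfe3* and -0.44 for *Mitf*. *Tfeb* and *Tfe3* thus kept their direction at both ages, and *Mitf* did not. *Flcn* differed by 1.03 at 3 months and -0.15 at 2.5 months, and *Fnip1* by 0.12 and -0.11. *Fnip2* differed by 0.03 at 3 months and -0.75 at 2.5 months. The signs of all 3 genes of the folliculin complex thus differed between the ages, but several of these differences were close to 0. With 1 mouse of each genotype at 2.5 months, a kept or changed sign is no finding about age. The 2-month-old mouse had no control of its age.

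Across the 8 livers, transcripts of the set did not move as a block. The highest Pearson r on the log2 scale was 0.65 between *Tfe3* and *Fnip2* (Spearman rho 0.60), and *Tfeb* and *Tfe3* had an r of 0.49 (rho 0.52). The lowest was -0.81 between *Tfe3* and *Flcn* (rho -0.95), in which livers with more *Tfe3* had less *Flcn*. The points share libraries, size factors and genotype, and these values are descriptions over 8 livers of mixed genotype.

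The tested genes whose level across the 8 livers was most like that of each gene were ranked by Pearson r. For *Tfeb* they were *Glyctk*, which encodes glycerate kinase, with an r of 0.98, *Ecm1*, an extracellular matrix protein gene, with 0.97, and *Anxa9*, an annexin gene, with 0.96. For *Tfe3* they were *Gm44950* (0.99), *1700025G04Rik* (0.98) and *Laptm4b*, which encodes a lysosomal membrane protein (0.98). For *Mitf* they were *Rap2b* (0.98), *Ncaph2* (0.95) and *C330013E15Rik* (0.92). In the folliculin group, *Flcn* was nearest to *Ap3m1*, which encodes a subunit of the AP-3 sorting complex (0.98), *Cnot4* (0.98) and *Irgm2* (0.95). *Fnip1* was nearest to AC154542.1 (0.98), *Taf15* (0.96) and *Smc5* (0.95), and *Fnip2* to *Pfdn4* (0.98), *Tmub1* (0.97) and *Gcc1* (0.96). These are the highest values among 11174 genes over only 8 livers of both genotypes, given as a description.

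Other genes of the pathway were counted in lists, and in each list 0 genes passed the adjusted threshold. Of 10 genes of the Rag GTPases and of Ragulator, the lysosomal scaffold that anchors them, 8 were tested, 4 below and 4 above 0, with a median log2 fold change of 0.02 and 0 at an unadjusted limma p under 0.05. All 5 genes of mTORC1, the kinase complex, were tested, with 4 below 0, a median of -0.35 and 0 at that threshold. Of 16 genes for MiT/TFE phosphorylation and transport, such as 14-3-3 proteins, calcineurin and the exporter *Xpo1*, 15 were tested and 1 had an unadjusted p under 0.05, *Mcoln1*, or 6.67%, near the 5.17% of all tested genes. Of 12 partners of the folliculin complex, including AMPK subunits, Hsp90 and GABARAP proteins, all were tested, 7 below and 5 above 0, with 0 at that threshold.

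Among 46 MiT/TFE target genes, 43 were tested, of which 29 had a log2 fold change below 0 and 14 above, with a median of -0.11. At an unadjusted limma p under 0.05, 4 of the 43 were lower and 0 higher, or 9.30% in all, against the background of 5.17%. The list includes *Flcn*, *Fnip1* and *Fnip2*. *Mcoln1* gave 112, 54.2, 48.1 and 74.7 in *Rragc* +/+ livers and 33.1, 39.1, 56.8 and 37.5 in *Rragc* S74N/+ livers, which overlapped, and its log2 fold change was -0.73 (SE 0.32, limma adjusted p = 0.846). *Atp6ap1*, which encodes an accessory subunit of the lysosomal proton pump, averaged 747 ± 173 in controls and 475 ± 154 in mutants (SD, n = 4 each), and its log2 fold change was -0.68 (SE 0.26) with the same adjusted p. The other genes of the 4, *Pip4p1* and *Ctsa*, which encodes the protease cathepsin A, were named after their values were seen. They had log2 fold changes of -0.62 and -0.42.

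The study's own lists of TFEB targets share genes with the list above. Of the short list of 20 genes, 17 were tested, 11 below and 6 above 0, with a median of -0.10. At an unadjusted limma p under 0.05, 2 were lower and 0 higher, *Ctns* and *Mcoln1*, or 11.8% against 5.17% of all tested genes. *Ctns*, which encodes the lysosomal cystine exporter cystinosin, gave 157, 146, 120 and 137 in *Rragc* +/+ livers and 72.5, 86.2, 76.9 and 61.2 in *Rragc* S74N/+ livers. Those genotypes did not overlap, as for 2.94% of all tested genes, and the log2 fold change was -0.91 (SE 0.22, limma adjusted p = 0.846). Of 267 genes of the CLEAR network, named for the motif coordinated lysosomal expression and regulation, 188 were tested, 96 below and 92 above 0, with a median of -0.01. At an unadjusted p under 0.05, 9 were lower and 1 higher, or 5.32%, beside 5.17% of all tested genes. The lowest log2 fold changes among these were -1.04 for *Gdf15*, a stress-induced hormone gene, and -0.97 for *Stom*, which encodes the membrane protein stomatin. The 1 higher gene was *Tob1*, an antiproliferative gene, at 0.56.

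**Figure D4:**
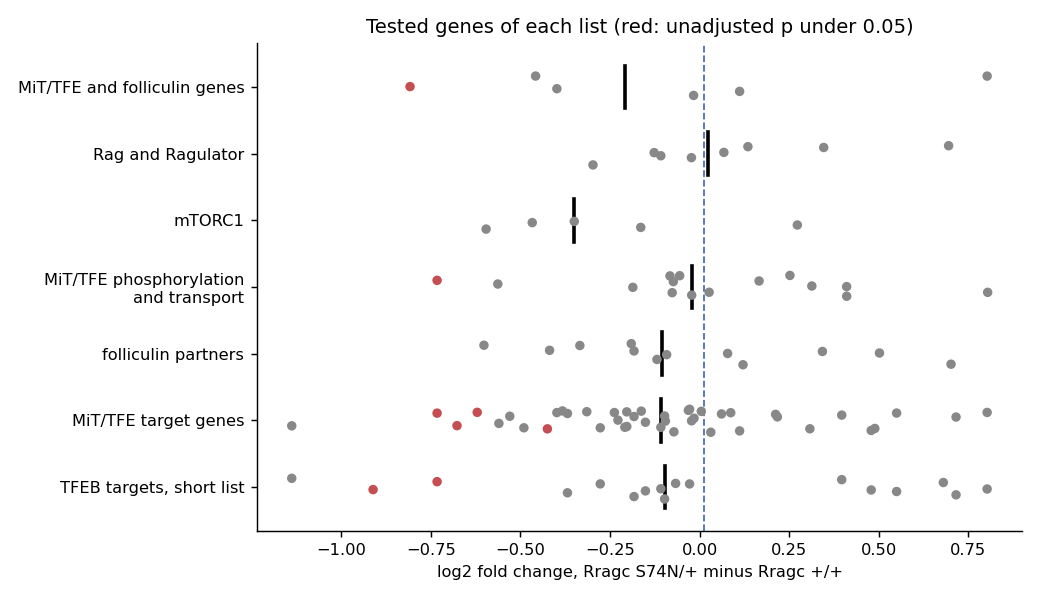
Log2 fold change, *Rragc* S74N/+ minus *Rragc* +/+, of every tested gene of 7 sets (the 6 genes and the pathway lists except the CLEAR network, which is not plotted), with red points for an unadjusted limma p under 0.05, black bars for list medians and the dashed line for the median of all tested genes, 0.01. Red points are sparse, 1 among the 6 genes and 4 among 43 target genes, and those plotted lie below 0.

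Markers of some other cell types differed between genotypes at the unadjusted threshold, and 0 at the adjusted one. Of 10 Kupffer cell markers, all were tested and 3 had an unadjusted limma p under 0.05, all higher in *Rragc* S74N/+ livers (*Marco*, *C1qc* and *Adgre1*), against 5.17% of all tested genes. Over the Kupffer list 7 log2 fold changes were above 0 and 3 below, among them -0.37 for *Clec4f* and -0.38 for *Csf1r*. The median was 0.17, and the summed level was 3029 to 4771 in *Rragc* +/+ and 3056 to 5069 in *Rragc* S74N/+ livers. Of 5 B cell markers, 2 were tested, 0 with a log2 fold change below 0 and 2 above, with a median of 0.90. Of these 1, *Igkc*, had an unadjusted limma p under 0.05. The summed level over the list was 79.5 to 134 against 181 to 268. Most of the mutant sums was *Igkc* itself, at 45.3 to 78.5 against 108 to 168, a lack of overlap seen for 2.94% of all tested genes. At few reads, *Cd79a* overlapped at 1.87 to 13.1 against 4.59 to 9.79, and so did *Ms4a1* at 1.41 to 5.61 against 2.23 to 14.7. Of 5 markers of monocyte-derived macrophages, 3 were tested, 0 with a log2 fold change below 0 and 3 above, with a median of 0.74. Of these 1, *Lyz2*, had an unadjusted limma p under 0.05. The summed level was 148 to 264 against 206 to 510. Of 5 kidney markers, 4 were listed and 1 was tested, *Kap*, which averaged 95.7 ± 45.4 in controls and 24.6 ± 19.1 in mutants (SD, n = 4 each). *Kap* did not overlap between genotypes, as for 2.94% of all tested genes. The kidney sums, 84.9 to 181 against 23.7 to 58.8, were apart because of *Kap*. The rest overlapped, with *Slc34a1* at 0 to 14.0 against 0 to 15.6, *Lrp2* at 3.74 to 12.7 against 2.23 to 10.7 and *Slc12a1* at 0 to 4.66 against 0 to 10.1. Of 7 markers of sinusoidal endothelium, all were tested and 1, *Pecam1*, had an unadjusted limma p under 0.05, with a log2 fold change of 0.88. Over that list 4 log2 fold changes were below 0 and 3 above, with a median of -0.12. The summed level was 1141.6 to 1523.5 against 1166.8 to 1488.3. Of 7 stellate cell markers, 6 were tested and 1, *Col1a1*, had an unadjusted limma p under 0.05, with a log2 fold change of 0.96. There 2 were below 0 and 4 above, with a median of 0.10 and sums of 1941.4 to 2307.2 against 1749.6 to 2463.7. The part of these cells in the values of *Tfeb*, or of any other gene above, was not tested.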

How the data were processed

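RNA from whole livers of 8 mice was made into 3′ end libraries (QuantSeq, forward). Reads were aligned by the authors to GRCm38 (TopHat2 2.0.10, Bowtie 1.0.0 and SAMtools 0.1.19), then counted by strand in each gene (HTSeq 0.6.1) and scaled with DESeq. The deposited signal is a normalized read count for 14506 genes. Every value (100%, tolerance 0.001 of a read) was a whole multiple of its library's step, so reads were recovered. With no molecular identifiers stated, reads are not independent molecules.

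Genotypes and ages came from the labels, and replicate numbers only name a mouse. Values were tested with limma 3.58.1 in R 4.3.3 (mean-variance trend, genotype only) on log2(normalized count + 1), which understates changes of low genes, for the 11174 genes averaging 10 or more, and adjusted by Benjamini-Hochberg at 0.05. Single values were tested by exact two-sided permutation. P-values measure the spread between these mice. The scripts were tested on simulated data. Alternatives were pseudocounts of 0.1 and 5, a minimum mean of 50 or none, TMM or upper-quartile rescaling, limma without the trend, age as a covariate or factor, 3-month-old mice alone, edgeR 4.0.16 and DESeq2 1.42.0 on recovered reads, and leaving out each liver.

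The genes and lists were chosen with earlier results of these data known. Named by rule were the 6 genes, *Tfec*, *Rragc*, the extremes (up to 2 per direction) of each list among genes with an unadjusted p under 0.05, the 3 genes most like each of the 6, and markers whose list moved. Gene positions are from GENCODE M21 on GRCm38, a neighbouring release of the one counted against. *Fnip1* overlaps *Gm24198* and *Fnip2* overlaps *Gm3513* on the same strand, and neither of these is listed.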

Additional observations from a re-analysis of the deposited data

Results flagged for a closer look

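*Tfe3* in *Rragc* +/+ replicate 3 stood apart from the rest of its group, at 149 normalized read counts against 217 to 226 in the other 3 *Rragc* +/+ livers, by Dixon's test for a group of 4. It was the 1 such value among 18 groups of 4 livers examined, where chance alone would give about 0.9. This liver had the fewest recovered reads, 4313076, and *Tfe3* had 105 reads in it. Without it, the log2 fold change of *Tfe3* was -0.60 in place of -0.46 (limma adjusted p = 0.696).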

How the results depend on the processing

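None of the 6 genes passed the adjusted threshold under any alternative, and at an unadjusted p under 0.05 the count was 0 to 1, or 0 to 3 when a liver was left out. The count of 3 came without *Rragc* +/+ replicate 3 (*Tfeb*, *Tfe3* and *Flcn*) and the count of 0 without *Rragc* +/+ replicate 1. *Tfeb* was also lost at that threshold in 3-month-old mice alone, with 3 controls and 2 mutants. Over all genes, limma called 1 gene, against 0 when the trend was dropped (603 unadjusted), 0 when age entered as a covariate (415), 0 in 3-month-old mice (641), 3 with age as a factor, a setting chosen after seeing the data, and 10 with DESeq2. Leaving out 1 liver gave 0 to 2 calls (315 to 1690 unadjusted), with 2 without *Rragc* S74N/+ replicate 3 and 0 without any other liver. The log2 fold change of *Mitf*, -0.02, turned to 0.16 with age as a covariate, 0.13 with age as a factor, 0.37 in 3-month-old mice and 0.056 with edgeR and 0.056 with DESeq2, and lay between -0.25 and 0.14 over the fits without 1 liver. That of *Fnip2*, -0.40, turned to 0.034 in 3-month-old mice and ran from -0.60 without *Rragc* S74N/+ replicate 2 to -0.23 without replicate 4. The cause was not tested. The others kept their sign, from -0.84 to -0.69 for *Tfeb*, -0.46 to -0.30 for *Tfe3*, 0.68 to 1.03 for *Flcn* and 0.02 to 0.12 for *Fnip1*, and with a liver left out from -0.95 to -0.63, -0.60 to -0.28, 0.43 to 1.09 and 0.02 to 0.23. The share of *Tfeb* differed by -6.78 to -3.40 percentage points and that of *Fnip1* by 2.99 to 6.63 with a liver left out, and in 3-month-old mice alone by -5.83 and 1.31. A mean of at least 50 removed *Tfeb*, *Mitf*, *Flcn* and *Fnip2*. No paired analysis was possible because the numbers of the livers only name them and do not link mice across genotypes. *Flcn* rests on 9 to 54 reads per liver.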
